A study of Mus musculus with 12 samples.

Results

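The genes described here are 33 that encode the folding machinery of the endoplasmic reticulum (ER) and the unfolded protein response (UPR). They were listed by name, with earlier results of these data known, and the list used no threshold on a measured value. They comprise 10 chaperones and co-chaperones, 8 folding enzymes, 6 stress sensors and transcription factors, and 9 components of ER-associated degradation (ERAD) and of the translocon. All 33 had a row among the 19312 genes of the expression table, and all 33 were abundant enough to be tested in every comparison.

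RNA was measured by RNA-Seq in male C57BL/6N mice at postnatal day 25, with 3 mice in each of 4 groups. WT-Veh and WT-Mem were wild-type mice given vehicle or memantine, and KO-Veh and KO-Mem were Shank2-KO mice, homozygous for a deletion of exons 6 and 7, given vehicle or memantine. Memantine, a blocker of the NMDA receptor channel, was given by mouth at 20 mg/kg in 0.1% saccharin, 2 times a day from day 7 to day 21, and the vehicle was the same saccharin solution. Each library came from a mouse of its own without pooling, and the deletion is in the germ line and so is carried by all cells of the KO mice. Shank2 encodes a scaffold of excitatory synapses.

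Proteins that enter the secretory pathway are threaded into the ER through the Sec61 channel, folded there by chaperones and disulfide isomerases, and returned to the cytosol for destruction by ERAD when folding fails. A load of unfolded protein is sensed by IRE1 (gene Ern1), PERK (gene Eif2ak3) and ATF6. IRE1 splices the mRNA of Xbp1, PERK slows translation and favours Atf4, and ATF6 is cut to release a transcription factor. Spliced XBP1 and cut ATF6 raise chaperone and ERAD genes, and ATF4 raises genes such as Ddit3. In the brain, neurons and glia depend on this machinery to make receptors, adhesion proteins, myelin proteins and secreted factors. The table holds gene totals, so spliced and unspliced Xbp1, and the activity of the sensors, were not measured.

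The values are DESeq2-normalized counts deposited by the authors, called normalized counts here. Shank2 itself was 8000 ± 498 (SD, n = 3) in WT-Veh, 7880 ± 697 in WT-Mem, 2927 ± 178 in KO-Veh and 2900 ± 247 in KO-Mem, with no overlap between genotypes. The labels name whole brain and the methods name the forebrain without cerebellum and brain stem. The summed level of 6 forebrain markers ran from 15211 to 17513 in the 12 mice, all 6 present. The summed level of 5 cerebellar markers was 262 to 509 in 11 mice and 3135 in KO-Veh replicate 3, with Gabra6, a granule cell marker, at 0 in some mice. Of 5 hindbrain markers only Slc6a5 and Tph2 had a row, with a sum of 37.7 to 374. KO-Mem replicate 1 had the lowest median correlation with the other 11 mice over all genes (r = 0.977, against 0.983 to 0.987 in the others). Counts and medians between genotypes are also given without them.

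Per kilobase of exon, the most abundant of the 33 were Calr, at a mean of 3079 normalized counts per kb over the 12 mice, Hspa5 at 1875, Canx at 1756, Hsp90b1 at 1735 and Pdia3 at 1327. Calreticulin and calnexin, encoded by Calr and Canx, bind folding glycoproteins, BiP (Hspa5) and GRP94 (Hsp90b1) are the ER forms of the Hsp70 and Hsp90 chaperones, and Pdia3 is the disulfide isomerase that works with calreticulin and calnexin. The least abundant per kb were Edem1 at 111, Derl2 at 79 and Ern1 at 59.1. The spread over all 12 mice, as a coefficient of variation of the normalized counts, was widest for Sdf2l1 at 33.5%, Pdia4 at 27% and Manf at 26.4%, and narrowest for Syvn1 at 4.17%, Derl1 at 4.77% and P4hb at 4.87%.

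The promoters of several of these genes carry the ER stress element (ERSE), CCAAT and CCACG with 9 bases of any kind between them, the letters through which ATF6 and the factor NF-Y are known to act. RefSeq promoter sequence on GRCm38.p6, from 250 bases before to 50 bases after a gene's start, was at hand for 28 of the 33 genes and was searched on both strands. The element was present in 8 of the 28, namely Hspa5, Hsp90b1, Calr, Canx, Dnajc3, Pdia6, Creld2 and Syvn1, and in 0.119% of all 32851 promoters. A second form, ERSE-II, ATTGG and CCACG with 1 base between them, was present in Dnajb11 and Herpud1 and in 0.037% of all promoters. The UPR element TGACGTGG and the ATF4 motif TGATGNAAT, where N is any base, were in 0 of the 28, against 0.676% and 0.965% of all promoters. No promoter of the 28 held both ERSE forms. The sites are shown with 9 bases on either side, because the genes that carry them include most of the abundant chaperones that were lower in KO mice and also ERAD genes that were not called. Capitals mark the fixed letters of the motif, and each sequence reads in the direction of its gene, so that a motif on the other strand appears as CGTGG and then ATTGG. The RefSeq start of Dnajc3 lies 44 bases before its start in GENCODE M21, on the same strand.
Hspa5 (ERSE, chr2:34772016-34772052, plus strand): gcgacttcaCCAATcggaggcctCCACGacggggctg
Hsp90b1 (ERSE, chr10:86705629-86705665, minus strand): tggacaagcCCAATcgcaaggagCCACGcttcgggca
Hsp90b1 (ERSE, chr10:86705524-86705560, minus strand): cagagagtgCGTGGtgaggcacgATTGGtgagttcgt
Calr (ERSE, chr8:84847066-84847102, minus strand): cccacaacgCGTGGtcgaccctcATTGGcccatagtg
Canx (ERSE, chr11:50325791-50325827, minus strand): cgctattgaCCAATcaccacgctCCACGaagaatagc
Dnajc3 (ERSE, chr14:118937818-118937854, plus strand): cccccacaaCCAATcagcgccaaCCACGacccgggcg
Pdia6 (ERSE, chr12:17266482-17266518, plus strand): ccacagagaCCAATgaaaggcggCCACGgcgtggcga
Creld2 (ERSE, chr15:88819511-88819547, plus strand): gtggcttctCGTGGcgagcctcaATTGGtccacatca
Syvn1 (ERSE, chr19:6046523-6046559, plus strand): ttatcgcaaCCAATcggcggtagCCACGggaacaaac
Dnajb11 (ERSE-II, chr16:22857843-22857871, plus strand): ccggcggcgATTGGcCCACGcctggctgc
Herpud1 (ERSE-II, chr8:94386368-94386396, plus strand): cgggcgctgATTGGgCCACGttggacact

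Of the 13 genes with a promoter sequence that were called lower in KO mice over both treatments, 6 had the ERSE, and of the 15 others with a sequence 2 had it, Dnajc3 and Syvn1. Hyou1, Manf and Sec61a1, also called lower, and Atf6 and Derl1, not called, had no sequence and were not searched. A match to letters is a description, and occupancy of these sites was not measured.

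The first comparison was between genotypes over both treatments, 6 KO against 6 WT mice, fitted on all 12 mice with treatment as a covariate. Most chaperones and folding enzymes were lower in KO mice, and most sensors and ERAD genes were not called. Of the 33 genes, 16 were called lower and 0 higher by limma at an adjusted p under 0.05. Over all 17655 genes tested, 5.91% were called lower and 4.89% higher. The called genes were 8 of the 10 chaperones, 5 of the 8 folding enzymes, 2 of the 6 sensors and factors (Xbp1 and Atf4) and 1 of the 9 ERAD and translocon genes (Sec61a1). At an unadjusted p under 0.05 the numbers were 20 lower and 1 higher, against 15.1% and 14.3% of all genes. The median log2 fold change was -0.18 over the 33 genes, -0.31 over the chaperones, -0.29 over the folding enzymes, -0.13 over the sensors and factors and -0.089 over the ERAD and translocon genes, and 0.0035 over all genes tested. The 6 KO and 6 WT mice did not overlap for 7 of the 33, all lower in KO mice, against 2.2% of all genes in that direction and 1.86% in the other: Calr, Hyou1, Pdia3, Pdia4, Xbp1, Derl1 and Sec61a1. The count varied with the mice, as did that over all genes. It was 9 without KO-Veh replicate 3, KO-Mem replicate 1 or KO-Mem replicate 2 (each time without Hspa5, Canx, Sdf2l1, Manf, Creld2, Atf4 and Sec61a1), where 2.24% to 2.63% of all genes were called lower, and 10 without WT-Mem replicate 3 (3.24% of all genes lower). It was 1 (Calr) without both KO-Mem replicate 1 and KO-Veh replicate 3, with 0.63% of all genes lower, while the median over the 33 genes was then -0.15. With the 2 mice WT-Veh replicate 3 and KO-Veh replicate 3 left out, 6 genes were called, with 2.04% of all genes lower: Hsp90b1, Calr, Hyou1, Pdia3, Pdia4 and Pdia6.

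**Figure D1:**
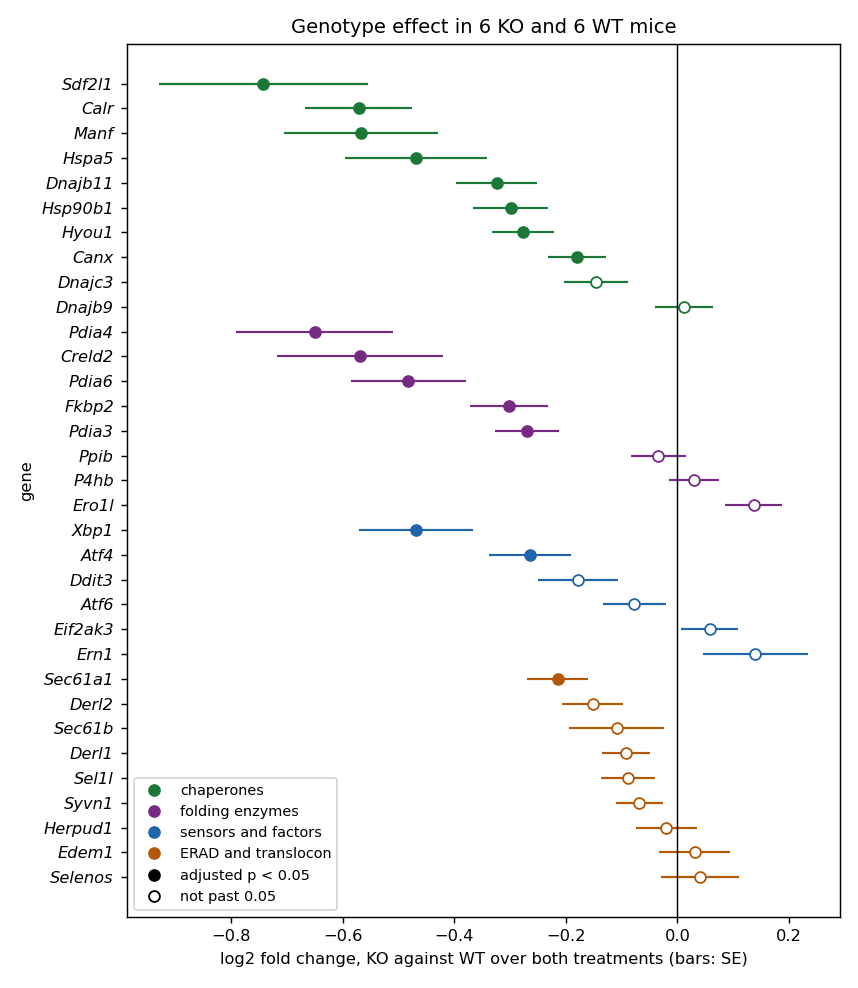
The log2 fold change between 6 KO and 6 WT mice over both treatments (x axis) of each of the 33 genes (y axis), grouped by role, with bars for the SE and filled points for adjusted p under 0.05. The 16 filled points all lie below 0, from -0.74 for Sdf2l1 to -0.18 for Canx, and 13 of them are chaperones or folding enzymes.

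**Figure D2:**
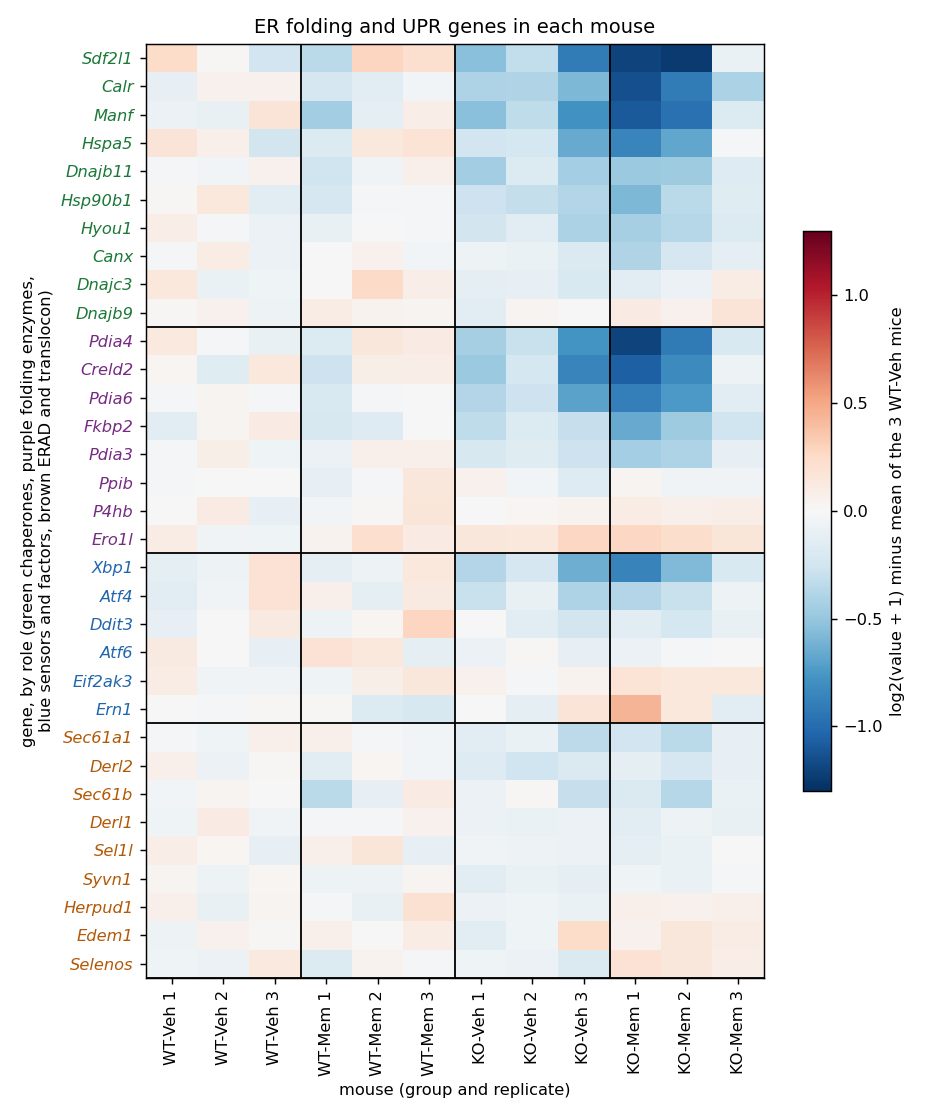
Each cell is the log2 of the normalized count plus 1 of a gene (row, by role) in a mouse (column), minus the mean of the 3 WT-Veh mice, with blue for lower and red for higher. In KO-Veh replicate 3 and KO-Mem replicates 1 and 2, the upper rows of the chaperone and folding enzyme blocks are blue. They are paler in the other KO mice and mostly near white in WT mice. WT-Mem replicate 1, however, is lower than KO-Mem replicate 3 for Sdf2l1 and Manf (329 against 392 and 769 against 927 normalized counts). Most ERAD rows are pale throughout.

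Among the chaperones, Hspa5 encodes BiP, the main Hsp70 of the ER lumen and the protein that holds the sensors inactive. Its normalized counts were 10068, 9401 and 7584 in WT-Veh mice, 7898, 9844 and 10124 in WT-Mem mice, 7555, 7627 and 5705 in KO-Veh mice and 4925, 5609 and 8817 in KO-Mem mice. The KO mice were lower on average, at 73.3% of the WT mean (log2 fold change -0.47, SE 0.13, adjusted p = 0.0317), but KO-Mem replicate 3 lay within the WT range and 4 of the 6 KO mice were below all WT mice. Hsp90b1, for GRP94, read 8005, 8711 and 7154 in WT-Veh mice, 6833, 7788 and 7810 in WT-Mem mice, 6591, 6397 and 6069 in KO-Veh mice and 5275, 6236 and 7089.6 in KO-Mem mice (log2 fold change -0.30, SE 0.0676, adjusted p = 0.0167). In 5 of 6 KO mice it was below every WT mouse. Other genes' exons lie over part of Hsp90b1 on both strands and the sources state no use of strand in counting, so some of its reads cannot be assigned with certainty.

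Calr had the smallest p of the 33 genes between genotypes. It read 10190.2, 11451 and 11420 in WT-Veh mice, 9454, 9962 and 10709 in WT-Mem mice, 8359, 8402 and 7332 in KO-Veh mice and 4969.8, 5864 and 8292 in KO-Mem mice, a fall to 68.4% of the WT mean (log2 fold change -0.57, SE 0.0966, adjusted p = 0.00675). Every KO mouse was below every WT mouse, and KO-Mem replicates 1 and 2 were lower than all KO-Veh mice. Canx, the membrane-bound relative of Calr, moved less, with 8633, 9305 and 8239 in WT-Veh mice, 8733, 9034 and 8529.7 in WT-Mem mice, 8341, 8191 and 7651 in KO-Veh mice and 6653, 7495 and 8059 in KO-Mem mice (log2 fold change -0.18, SE 0.0518, adjusted p = 0.0387). Centring each mouse on its median ended the Canx call.

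Hyou1 encodes an Hsp110-type exchange factor of BiP. Its values were 4282, 3985 and 3814 in WT-Veh mice, 3754, 4046 and 3945 in WT-Mem mice, 3402, 3633 and 3023 in KO-Veh mice and 2972, 3120.4 and 3562 in KO-Mem mice (log2 fold change -0.28, SE 0.0557, adjusted p = 0.0112), with all KO mice below all WT mice. Dnajb11, a J-domain co-chaperone that works with BiP, was at 1367, 1344 and 1433 in WT-Veh mice, 1153, 1335 and 1443 in WT-Mem mice, 1008, 1217 and 1013 in KO-Veh mice and 989, 1004 and 1226 in KO-Mem mice (log2 fold change -0.32, SE 0.0724, adjusted p = 0.016). Its overlap came from WT-Mem replicate 1, below 2 of the KO mice. The other J-domain genes did not pass the test. Dnajb9 ranged over 703 to 791 (median 760.1) in WT and 673 to 832 (median 764) in KO mice (log2 fold change 0.01, SE 0.0524, adjusted p = 0.907), and Dnajc3, whose product restrains eIF2α kinases and assists BiP, over 1797 to 2252 (median 1954) and 1655 to 2030.4 (median 1750.3) (log2 fold change -0.15, SE 0.0575, adjusted p = 0.108).

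Sdf2l1, whose product forms a complex with Dnajb11 and BiP, had the widest change of the 33 on the log2 scale. Its normalized counts were 493, 422 and 351 in WT-Veh mice, 329, 507 and 484 in WT-Mem mice, 286, 334 and 222 in KO-Veh mice and 181, 176 and 392 in KO-Mem mice (log2 fold change -0.74, SE 0.19, adjusted p = 0.0246). In KO-Mem replicates 1 and 2 it was under all other mice, while KO-Mem replicate 3 and KO-Veh replicate 2 stood within the WT range. Manf encodes a secreted, ER-retained neurotrophic factor that binds BiP, and read 996, 984 and 1184 in WT-Veh mice, 769, 961 and 1114 in WT-Mem mice, 721, 834 and 610.4 in KO-Veh mice and 493, 537 and 927 in KO-Mem mice (log2 fold change -0.57, SE 0.14, adjusted p = 0.0217). As for Hspa5 and Sdf2l1, 4 of 6 KO mice were below all WT mice, and its exons overlap those of Rbm15b on the same strand and of Dcaf1 on the other.

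**Figure D3:**
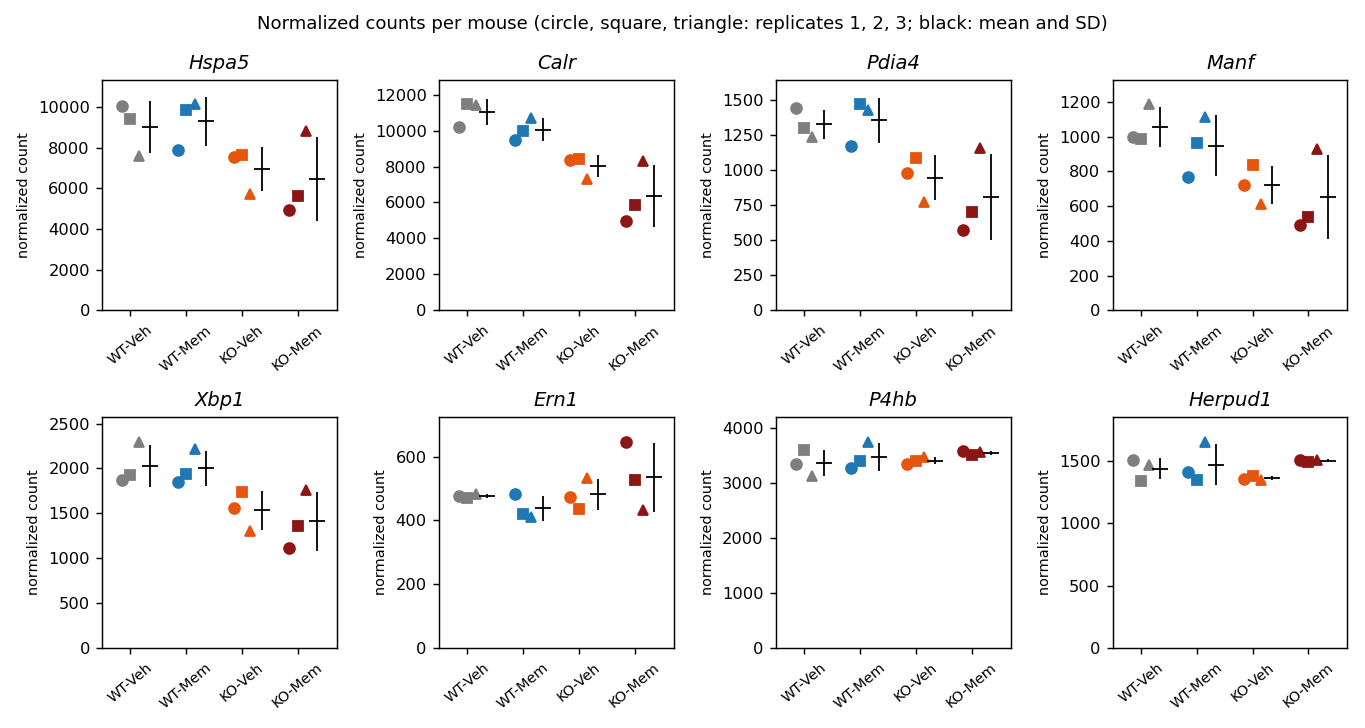
Normalized counts (y axis, from 0) of 8 of the genes in each of the 12 mice, by group (x axis), with replicates 1, 2 and 3 as circle, square and triangle and the mean and SD in black. For Hspa5, Calr, Pdia4, Manf and Xbp1, KO-Mem replicate 3 is the highest of the KO-Mem mice and KO-Mem replicate 1 the lowest, for Ern1 the order is the opposite, and P4hb and Herpud1 differ little between groups.

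Of the folding enzymes, the disulfide isomerases Pdia4, Pdia6 and Pdia3, which make and rearrange disulfide bonds, were called lower, and P4hb, the gene of the classical enzyme PDI, was not. Pdia4 read 1443, 1299 and 1239 in WT-Veh mice, 1173, 1469.8 and 1428 in WT-Mem mice, 980.0, 1087 and 770.0 in KO-Veh mice and 573, 699.6 and 1156 in KO-Mem mice (log2 fold change -0.65, SE 0.14, adjusted p = 0.0144). All KO mice were under all WT mice, although KO-Mem replicate 3 and WT-Mem replicate 1 were close. For Pdia6 the counts were 3102, 3207 and 3073 in WT-Veh mice, 2730.1, 3072 and 3106 in WT-Mem mice, 2404, 2586 and 1933 in KO-Veh mice and 1689.8, 1864 and 2821 in KO-Mem mice (log2 fold change -0.48, SE 0.10, adjusted p = 0.0136), and KO-Mem replicate 3 was the 1 KO mouse inside the WT range. Pdia3 read 4454, 4767 and 4341 in WT-Veh mice, 4277, 4715 and 4731 in WT-Mem mice, 3904, 4051 and 3759 in KO-Veh mice and 3332, 3432 and 4207 in KO-Mem mice (log2 fold change -0.27, SE 0.058, adjusted p = 0.0141), without overlap. P4hb, by contrast, was 3129 to 3756 (median 3375) in WT and 3354 to 3590.2 (median 3499) in KO mice (log2 fold change 0.03, SE 0.0449, adjusted p = 0.703). Exons of Catsper2 and Atp6v1c2 on the other strand overlap Pdia3 and Pdia6.

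Creld2, a resident with disulfide isomerase activity that is induced by ER stress, read 471, 413 and 507 in WT-Veh mice, 383, 487 and 492 in WT-Mem mice, 331, 396 and 254 in KO-Veh mice and 221, 259 and 440.4 in KO-Mem mice (log2 fold change -0.57, SE 0.15, adjusted p = 0.0276). KO-Mem replicate 3 and KO-Veh replicate 2 lay within the WT range. The prolyl isomerases divided: Fkbp2 was lower in KO mice, with 1160.1, 1316 and 1376 in WT-Veh mice, 1111, 1138 and 1289 in WT-Mem mice, 1018, 1134 and 1043 in KO-Veh mice and 814, 926 and 1070.4 in KO-Mem mice (log2 fold change -0.30, SE 0.0703, adjusted p = 0.0187), and Ppib, for cyclophilin B, ran from 3545 to 4238 (median 3817) in WT and 3411 to 3989 (median 3725) in KO mice (log2 fold change -0.03, SE 0.0498, adjusted p = 0.682). Ero1l encodes the oxidase that recharges PDI. It was the only gene of the 33 with a higher level in KO mice at an unadjusted p under 0.05, at 1348, 1221 and 1213 in WT-Veh mice, 1304, 1467 and 1357 in WT-Mem mice, 1397, 1383 and 1517 in KO-Veh mice and 1520.3, 1471 and 1399.9 in KO-Mem mice (log2 fold change 0.14, SE 0.051, adjusted p = 0.0909), and it was not called.

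Among the sensors and transcription factors, Xbp1 stood lowest in KO mice relative to WT mice. Its values were 1866, 1926 and 2297 in WT-Veh mice, 1847, 1936 and 2216 in WT-Mem mice, 1557, 1739 and 1297 in KO-Veh mice and 1108, 1358 and 1764 in KO-Mem mice, or 73% of the WT mean in KO mice (log2 fold change -0.47, SE 0.10, adjusted p = 0.0149), without overlap. Atf4, which is controlled mainly at translation, read 2326, 2505 and 2949 in WT-Veh mice, 2701, 2375 and 2791 in WT-Mem mice, 2107, 2409 and 1953 in KO-Veh mice and 1985, 2112 and 2471 in KO-Mem mice (log2 fold change -0.26, SE 0.0734, adjusted p = 0.0345). It overlapped in KO-Veh replicate 2 and KO-Mem replicate 3. Ddit3, the gene of CHOP, a factor tied to prolonged stress, was 580.1 to 759 (median 629.7) in WT and 532 to 623 (median 568) in KO mice (log2 fold change -0.18, SE 0.0711, adjusted p = 0.112), and its exons lie opposite those of Mars.

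The 3 sensor genes did not pass the test. Atf6 was 2239 to 2786 (median 2548) in WT and 2272 to 2475 (median 2372) in KO mice (log2 fold change -0.08, SE 0.0571, adjusted p = 0.385). Eif2ak3 was 942 to 1087 (median 990.1) and 959.7 to 1106 (median 1046) (log2 fold change 0.06, SE 0.0507, adjusted p = 0.469). Ern1 was 412 to 484 (median 474) and 433 to 647 (median 499.9) (log2 fold change 0.14, SE 0.0943, adjusted p = 0.339), with its highest value in KO-Mem replicate 1.

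Of the ERAD and translocon genes, only Sec61a1, the pore-forming subunit of the Sec61 channel, was called. It read 2291, 2228 and 2426 in WT-Veh mice, 2422, 2281 and 2249 in WT-Mem mice, 2084, 2184 and 1827 in KO-Veh mice and 1948, 1813 and 2143 in KO-Mem mice (log2 fold change -0.21, SE 0.0546, adjusted p = 0.0252), with all KO mice under all WT mice. Its partner Sec61b was 285 to 390.0 (median 359) in WT and 281 to 367 (median 330.3) in KO mice (log2 fold change -0.11, SE 0.0858, adjusted p = 0.414). Derl1 and Derl2, derlins of the retrotranslocation complex, had an unadjusted p of 0.0495 and 0.0146 and adjusted values of 0.169 and 0.0838. For Derl1 the KO mice were all under the WT mice, at 1517 to 1601 (median 1582) against 1609 to 1799 (median 1645), a narrow gap of a gene with little spread.

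The ubiquitin ligase pair of ERAD, Syvn1 (HRD1) and Sel1l, had log2 fold changes of -0.07 and -0.09 (adjusted p = 0.293 and 0.242). Herpud1, a stress-induced partner of HRD1, read 1510.1, 1344 and 1470.3 in WT-Veh mice, 1418, 1348 and 1657 in WT-Mem mice, 1361, 1385 and 1353 in KO-Veh mice and 1512, 1494 and 1509 in KO-Mem mice (log2 fold change -0.02, SE 0.0549, adjusted p = 0.842). The KO mice lay within the WT range. Edem1, a lectin that hands misfolded glycoproteins to ERAD, was 660.1 to 742 (median 709) in WT and 626 to 819 (median 731) in KO mice (log2 fold change 0.03, SE 0.0643, adjusted p = 0.784). Selenos, a selenoprotein of the same complex, read 700.4, 690.1 and 798 in WT-Veh mice, 645, 752 and 721 in WT-Mem mice, 701, 691 and 638 in KO-Veh mice and 828, 806 and 775 in KO-Mem mice (log2 fold change 0.04, SE 0.0696, adjusted p = 0.734), with the 3 KO-Mem mice high and the KO-Veh mice at the WT level.

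Markers of some cell types differed between genotypes too, and their part in the result was not tested. In bulk tissue, fewer cells of a type and less RNA per cell cannot be told apart. The summed level of 8 neuronal markers in KO mice was 98.3% of that in WT mice (186554 to 195985 against 173372 to 201513), and that of 6 astrocyte markers 97.4% (49750 to 54232 against 52203 to 56418). Neuronal markers went in different directions: Tubb3 had a mean of 17164 (vehicle) and 18524 (memantine) in WT and 16191 and 13993 in KO mice. Gad2 had 7071 and 7580 in WT and 8163 and 8536 in KO mice. Astrocyte markers went in different directions: Aqp4 had a mean of 4258 (vehicle) and 3623 (memantine) in WT and 3064 and 2336 in KO mice, and Slc1a3 of 14812 and 14570.2 in WT and 15578 and 16103 in KO mice. The 6 endothelial markers summed to 4703 to 5621 in KO and 5738 to 6774 in WT mice (83.2%), and the 3 markers of oligodendrocyte precursors to 7210 to 8075 and 8266 to 9294 (88.4%), both without overlap. The precursor sum mostly followed Olig1, which oligodendrocytes also express (means of 5576, 5201, 4695 and 4207 in the same order). Pdgfra was level at 2202, 2196, 2238 and 2189, and Cspg4 had means of 1116, 1058, 1003 and 1010, lower in KO mice. With overlap, the KO level was 82.0% of WT for 6 oligodendrocyte markers (237444 to 305397 against 294380 to 407701), 86.4% for 6 microglial (6053 to 7663 against 7441 to 9136), 87.1% for 6 choroid plexus (7389 to 15751 against 12720 to 14958), 75.5% for 6 meningeal and fibroblast (3509 to 5496 against 5034 to 7252) and 61.6% for 5 blood markers (5626 to 18764 against 13301 to 26320). The 3 KO mice with the lowest chaperone levels, KO-Mem replicates 1 and 2 and KO-Veh replicate 3, also had the lowest choroid plexus sums of the 12 mice, at 7389, 10710 and 11287. Their blood marker sums, at 5626, 7413 and 7567, and their meningeal sums, at 3509, 3964 and 4494, were likewise the lowest. KO-Mem replicate 3 had 14322, 12528 and 5496 for these 3 lists. The choroid plexus sum was mostly Ttr, with means of 13165 in WT-Veh, 13138 in WT-Mem, 12866.5 in KO-Veh and 9979 in KO-Mem. Folr1, Kl, Clic6 and Kcnj13 were also lowest in KO-Mem on average. Folr1 was highest in KO-Veh, however, at 93.4, and Aqp1 was lowest in WT-Veh, at 110.

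Within vehicle-treated mice (Veh-K/W, KO-Veh against WT-Veh, 3 against 3), 0 of the 33 genes were called, where 0.0113% of all genes were called lower and 0.017% higher. At an unadjusted p under 0.05 limma gave 16 lower and 1 higher, Ero1l, against 7.68% and 6.73% of all genes. The groups did not overlap for 17 genes lower in KO-Veh, against 10.7% of all genes, and for Ero1l higher (9.73%). The median of the 33 log2 fold changes was -0.15, against 0.0017 over all genes. Without KO-Veh replicate 3, the mouse with the high cerebellar sum, 0 were called, 12 were lower and 0 higher at an unadjusted p under 0.05 (4.87% and 3.75% of all genes), and the median was -0.12. The smallest p belonged to Calr (log2 fold change -0.46, SE 0.07, adjusted p = 0.131), Manf (-0.55, SE 0.12, adjusted p = 0.137) and Pdia6 (-0.45, SE 0.097, adjusted p = 0.137). Without memantine, most chaperones and folding enzymes therefore had non-overlapping values, and none passed the adjusted threshold. By role, 7 of 10 chaperones, 5 of 8 folding enzymes, 1 of 6 sensors and factors and 4 of 9 ERAD and translocon genes had no overlap and were lower.

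Within memantine-treated mice (Mem-K/W, KO-Mem against WT-Mem), 0 of the 33 were called by limma on these 6 mice, with 0.0397% of all genes called lower and 0.0283% higher. An unadjusted p under 0.05 was found for 16 lower and 0 higher (10.8% and 10.1% of all genes), and 10 were lower without overlap (13.5%). The median was -0.23, against 0.0022 over all genes. Without KO-Mem replicate 1, 0 were called, 10 were lower at an unadjusted p under 0.05 (6.48% of all genes) and the median was -0.17. Calr (log2 fold change -0.69, SE 0.15, adjusted p = 0.0884), Pdia4 (log2 fold change -0.80, SE 0.21, adjusted p = 0.104) and Hyou1 (log2 fold change -0.29, SE 0.0779, adjusted p = 0.108) had the smallest p. Fitted with all 12 mice, which adds an estimate of spread from the vehicle mice, 3 were called: Calr, Pdia3 and Pdia4 (2.01% of all genes called lower and 1.59% higher). Without KO-Mem replicate 3, the mouse with chaperone levels near those of WT mice, 16 of the 33 were called, but calls rose over the whole table too, from 12 genes to 1911 (5.96% lower and 4.88% higher). Selenos alone was higher in KO-Mem without overlap (log2 fold change 0.19, adjusted p = 0.263, where 12.7% of all genes were higher without overlap).

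Memantine moved none of the 33 past the threshold in either genotype, apart from 1 in KO mice once KO-Mem replicate 3 was left out, when 97 of all genes were called (0.327% lower and 0.22% higher). In KO mice (KO-M/V, KO-Mem against KO-Veh), limma called 0 of the 33 and 0% of all genes in either direction, and 1 lower (Calr) and 2 higher (Selenos and Herpud1) had an unadjusted p under 0.05, against 4.54% and 4.34% of all genes. Calr, whose 12 values are given above, was at -0.36 on the log2 fold change scale (SE 0.16, adjusted p = 0.557), with KO-Mem replicate 3 at the KO-Veh level. Selenos was at 803 ± 26.6 in KO-Mem and 676 ± 33.7 in KO-Veh (SD, n = 3, log2 fold change 0.25, SE 0.0768, adjusted p = 0.554), and Herpud1 at 1505 ± 9.68 and 1366 ± 17 (log2 fold change 0.14, SE 0.0578, adjusted p = 0.555). In 6 genes the 3 KO-Mem mice were all above the 3 KO-Veh mice, against 7.1% of all genes: Selenos, Herpud1, Syvn1, Eif2ak3, Dnajb9 and P4hb. None was below without overlap (6.82%). The counts of lower genes depended on KO-Mem replicate 3. Without it, limma gave 11 lower and 1 higher at an unadjusted p under 0.05 (9.57% and 9.14% of all genes). Without overlap, 11 were then lower and 6 higher (18.8% and 18.9% of all genes).

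In WT mice (WT-M/V, WT-Mem against WT-Veh), limma called 0 of the 33, with 0.0114% of all genes called lower and 0% higher, and 0 had an unadjusted p under 0.05 (2.47% and 1.5% of all genes). No gene of the 33 separated the WT groups (5.19% of all genes lower and 4.15% higher without overlap), and the log2 fold changes lay between -0.16 and 0.13. The smallest p was that of Calr (log2 fold change -0.13, SE 0.0745, adjusted p = 0.978), followed by Ero1l (log2 fold change 0.13, SE 0.0798, adjusted p = 0.978) and Fkbp2 (log2 fold change -0.12, SE 0.0919, adjusted p = 0.978). Without WT-Mem replicate 3, 0 were called and 2 were lower at an unadjusted p under 0.05 by limma (3.15% of all genes). Without overlap, 8 were then lower and 1 higher (12.6% and 11.8% of all genes). With any other mouse left out, 0 to 2 were lower without overlap. No difference beyond the spread between mice was thus detectable with 3 mice a group.

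Over both genotypes, memantine against vehicle gave 0 called genes of the 33 and 0% of all genes, with an unadjusted p under 0.05 for Calr (log2 fold change -0.25, SE 0.0966, adjusted p = 0.516) and Fkbp2 (log2 fold change -0.16, SE 0.0703, adjusted p = 0.558), both lower, against 4.97% of all genes, and for 0 higher, against 3.64%. The interaction, Mem-K/W minus Veh-K/W, also gave 0 called by limma among the 33 and 0% among all genes, and an unadjusted p under 0.05 only for Selenos (log2 fold change 0.29, SE 0.12, adjusted p = 0.947), against 2.41% of all genes in that direction. For Hspa5 the interaction was -0.19 with an SE of 0.26, for Calr -0.23 with 0.19 and for Pdia4 -0.30 with 0.28 (adjusted p = 0.956, 0.947 and 0.951). The difference between the genotype effects with and without memantine was therefore not shown for any of the 33.

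The remaining pairs cross both factors and share their mice with the comparisons above. With KO-Mem set against WT-Veh (KO-M/WT-V), limma called 1 of the 33, Calr (log2 fold change -0.82, SE 0.15, adjusted p = 0.0311), where 2.05% of all genes were called lower and 1.32% higher. The call was lost when any mouse but KO-Mem replicate 3 was left out, when 1 to 54 of all genes were called. Without KO-Mem replicate 3, 15 of the 33 were called, and 2490 of all genes (7.73% lower), against 595 with it. Fitted with all 12 mice it gave 11, all lower (6.46% of all genes lower and 5.25% higher): Calr, Hsp90b1, Canx, Hyou1, Dnajb11, Manf, Pdia3, Pdia4, Pdia6, Fkbp2 and Xbp1. Without overlap, 15 were lower (15.6% of all genes) and 4 higher (15.5%), the latter Dnajb9, Ero1l, Eif2ak3 and Edem1. WT-Mem against KO-Veh (WT-M/KO-V) gave 0 called genes by limma, with 0.0113% of all genes called in each direction. There 16 were higher in WT-Mem at an unadjusted p under 0.05 (4.71% of all genes, and 4.23% lower) and 14 without overlap (7.73%), or 11 (2.56%) and 15 (10.6%) without KO-Veh replicate 3, with 0 called. Pdia4 and Hspa5 were among the 16 (log2 fold change 0.53 and 0.42, adjusted p = 0.434 and 0.452).

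The mice of a group also differed from each other, those of KO-Mem most, and the chaperones did so together. As a mean deviation of log2 values from each gene's 12-mouse mean, the 10 chaperones had 0.23, 0.21 and 0.13 in the WT-Veh mice, 0.023, 0.23 and 0.24 in the WT-Mem mice, -0.11, -0.018 and -0.26 in the KO-Veh mice and -0.43, -0.33 and 0.085 in the KO-Mem mice. The 8 folding enzymes were at -0.35, -0.25 and 0.062 in KO-Mem and between 0.0078 and 0.22 in the 6 WT mice. Among the 18 chaperone and folding enzyme genes, KO-Mem replicate 3 was the highest KO mouse for 11 and KO-Mem replicate 1 the lowest for 12.

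**Figure D4:**
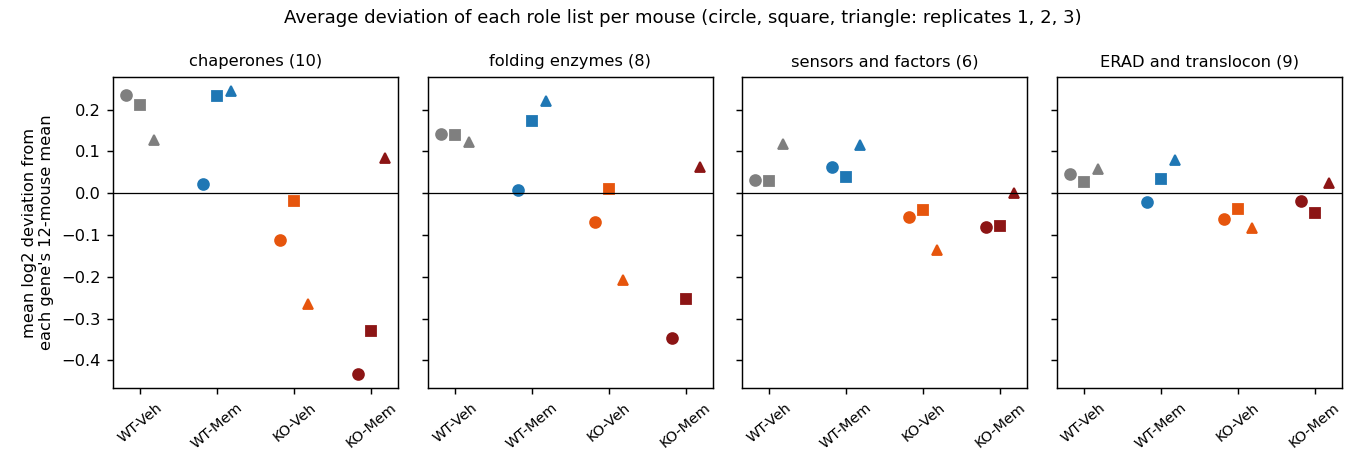
Mean log2 deviation from each gene's 12-mouse mean (y axis) of the genes of each role list in each mouse, by group (x axis), with replicates 1, 2 and 3 as circle, square and triangle. For the 10 chaperones the KO-Mem mice spread from -0.43 to 0.085 and the WT mice from 0.023 to 0.24, while the 9 ERAD and translocon genes stay close to 0 in all mice.

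With the group means removed, the correlation between the log2 values of 2 genes over the 12 mice had a median of 0.703 over the 45 pairs of chaperones, all of them above 0. It was 0.59 over the 153 pairs of chaperones and folding enzymes, 0.25 over all 528 pairs, -0.158 over the 15 pairs of sensors and factors, 0.0626 over the 36 pairs of ERAD and translocon genes and -0.001 over all pairs of genes tested. These are descriptions without a test, since all genes share the 12 libraries, and deviations from 4 group means leave fewer free points than mice. The genes most like Hspa5 were Sdf2l1 and Pdia4, both at r = 0.96 (Spearman 0.86 and 0.951, and Pearson 0.932 and 0.922 without KO-Mem replicates 1 and 3, the mice farthest out), then Hyou1 at 0.929, Pdia6 at 0.925 and Pdia3 at 0.911. At the other end was Ern1, named after its values were seen, at r = -0.894 (Spearman -0.825, and Pearson -0.783 without the same 2 mice), so mice with less BiP mRNA than others of their group had more Ern1 mRNA. Atf6, at 0.191, and Eif2ak3, at 0.237, did not share this. Herpud1, at 0.133, Selenos, at -0.055, and P4hb, at 0.293, also varied apart from Hspa5.

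**Figure D5:**
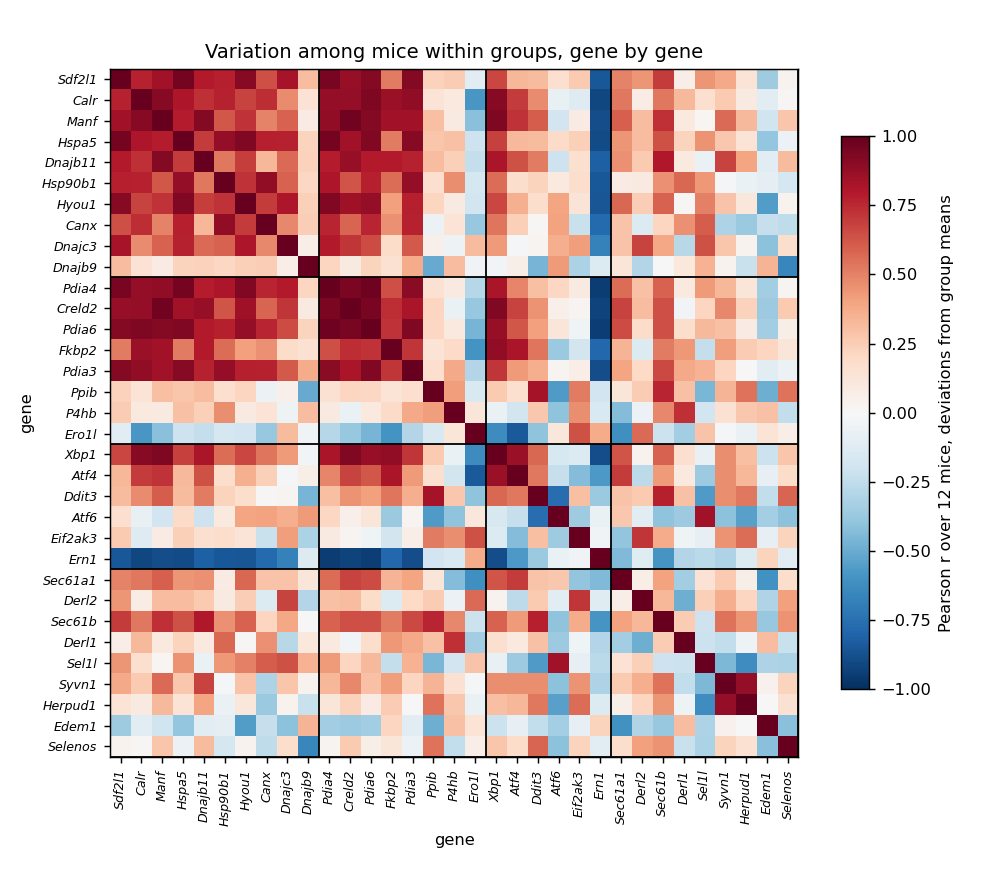
Pearson r over the 12 mice between the deviations of 2 genes from their group means (colour, red above 0, blue below), for all pairs of the 33 genes in the order of the heat map. The chaperone and folding enzyme blocks are strongly red apart from Dnajb9, Ppib, P4hb and Ero1l, Xbp1 goes with them, and the row of Ern1 is blue against them.

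A wider list of 106 other ER genes, set by function, was read the same way, and its calls went in both directions. Between genotypes over both treatments 8 were called lower and 8 higher, beside the 5.91% and 4.89% of all genes given above, and their median log2 fold change was -0.032. Of 29 other genes of folding and quality control, 2 were called lower and 2 higher, of 25 of translocation and glycosylation 2 lower and 0 higher, of 22 of degradation 0 lower and 2 higher, and of 30 of stress signalling 4 lower and 4 higher. Lower were Dad1 (log2 fold change -0.29, SE 0.0644, adjusted p = 0.0153) and Ostc (log2 fold change -0.27, SE 0.0718, adjusted p = 0.0313), both subunits of the oligosaccharyltransferase that glycosylates proteins at the Sec61 channel. Dad1 was 1425 to 1711 (median 1556) in WT and 1068 to 1469.6 (median 1299) in KO mice. Erp44, a thiol-dependent retention factor, Clgn, a relative of calnexin, Tmbim6, a membrane protein that dampens cell death, and Phgdh, an ATF4-regulated enzyme of serine synthesis, were also lower, with log2 fold changes of -0.25, -0.27, -0.16 and -0.22 (adjusted p = 0.0434, 0.0356, 0.0300 and 0.0246).

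In the signalling branch, Atf6b, the paralogue of Atf6, was 1808 to 2321 (median 1925) in WT and 1445 to 1873 (median 1645) in KO mice (log2 fold change -0.26, SE 0.0624, adjusted p = 0.0202). Creb3l2, a membrane-held factor cut in the same manner as ATF6, was 622 to 713 (median 681) and 414 to 616 (median 513), all KO mice lower (log2 fold change -0.38, SE 0.0713, adjusted p = 0.00855). In the opposite direction, Mbtps1, the site-1 protease that cuts ATF6, was 2817 to 3205 (median 3159) in WT and 3244 to 4255 (median 3489) in KO mice, all KO mice higher (log2 fold change 0.22, SE 0.0587, adjusted p = 0.0276). Also called higher were Eif2ak4 (log2 fold change 0.27, SE 0.0577, adjusted p = 0.0145) and Eif2ak2 (log2 fold change 0.72, SE 0.20, adjusted p = 0.0321), the other eIF2α kinases GCN2 and PKR, and Wfs1 (log2 fold change 0.20, SE 0.0544, adjusted p = 0.0295), an ER membrane protein mutated in Wolfram syndrome. PKR was low, with 102 to 199 (median 144) in WT and 167 to 352 (median 226) in KO mice, which overlapped.

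The higher genes outside signalling were Uggt2 (0.32), a glucosyltransferase of the calnexin cycle, Dnajc10 (0.21), a reductase that opens disulfides before degradation, Erlec1 (0.26), a lectin of ERAD, and Ufd1 (0.22), a cofactor that extracts ubiquitinated proteins, the numbers being log2 fold changes with adjusted p = 0.0293, 0.0265, 0.0212 and 0.0476. Within vehicle-treated or memantine-treated mice 0 of the 106 were called on the 6 mice of each comparison. Fitted with all 12 mice, 6 were called in Mem-K/W, namely Creb3l2 and Atf5 lower and Ufd1, Ube2g2, Mbtps1 and Eif2ak4 higher, and 15 in KO-M/WT-V. Over all genes these fits called 2.01% lower and 1.59% higher in Mem-K/W, and 6.46% and 5.25% in KO-M/WT-V. Atf5 (log2 fold change -0.43, SE 0.11, adjusted p = 0.104 in Mem-K/W) and Sec62 (log2 fold change -0.21, SE 0.0673, adjusted p = 0.24 in Veh-K/W), a translocation partner of Sec61, were among those with the smallest p within a treatment. On the 6 mice of KO-M/WT-V 3 were called, all lower, where 2.05% of all genes were called lower and 1.32% higher. They were Creb3l2 (log2 fold change -0.62, SE 0.10, adjusted p = 0.0243), Phgdh (log2 fold change -0.42, SE 0.0713, adjusted p = 0.028) and Dad1 (log2 fold change -0.43, SE 0.0961, adjusted p = 0.0444).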

How the data were processed

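RNA-Seq values of 12 mice, 3 in each of 4 groups (wild-type or Shank2-KO, vehicle or memantine), were read from a single table of 19312 genes. The authors quantified reads with Salmon 1.1.0, summed transcripts to genes with tximport and normalized them with DESeq2 (1.26.0 under R 3.6.2 in the submitters' processing notes), so that the deposited values are a normalized signal and not counts. The annotation release is not given in the sources used here. Because the values are scaled between mice, their sums (30373849 to 31199251) are not depths. The depth of each library is therefore unknown here. The lowest nonzero values lay near 1 (0.870 to 1.11 by mouse), and whole reads were not recovered from them, so no counting intervals are given.

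Values were taken as log2(value + 1), genes with a mean of at least 10 over the mice of a fit were kept, and groups were compared with limma 3.58.1 (R 4.3.3, lmFit and eBayes with a trend), with Benjamini-Hochberg adjustment over all genes tested and calls at an adjusted p under 0.05, two-sided. A pair of groups was fitted on its own 6 mice, and genotype, memantine and their interaction on all 12. P-values measure the spread between separate mice. The method was run on simulated data with 200 changed genes, with noise drawn for each gene on its own. Variation that genes share within a mouse was not simulated, so that run does not cover it. Figures were drawn with matplotlib 3.10.9 (Python 3.11.15, pandas 2.3.3). Gene symbols and exon overlaps came from GENCODE M21, which held 19295 of the genes, and promoters from RefSeq on GRCm38.p6.

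The 33 genes, the other lists and the tests were chosen with earlier results of these data known. Values in every mouse are given for Hspa5, for genes called in any comparison or in the fit of all 12 mice, and for the 3 with the smallest p in each comparison of genotypes within a treatment, of treatments within a genotype and of genotypes over both treatments. Of the other ER genes those called are named, except for the 15 called in KO-M/WT-V in the fit of all 12 mice, which are only counted. Also named are the 3 with the smallest p in each direction in the comparisons of genotypes. The alternatives were a pseudocount of 5, a minimum mean of 50 or none, no trend, mice centred on their medians, a replicate block, all 12 mice in one fit, each mouse left out and, chosen after seeing the data, 2 pairs of mice left out.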

Additional observations from a re-analysis of the deposited data

How the results depend on the processing

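For genotype over both treatments, 16 of the 33 genes were called in the fit reported, 8 without a trend, 15 with mice centred on their medians (Canx lost), 9 to 16 with a mouse left out, 6 without WT-Veh replicate 3 and KO-Veh replicate 3 and 1 without KO-Mem replicate 1 and KO-Veh replicate 3. Over all genes the same fits called 1907, 894, 1944, 694 to 2683, 636 and 154. The median over the 33 moved from -0.18 to -0.15 without either pair. Hsp90b1, Calr, Hyou1, Dnajb11, Pdia3, Pdia4, Pdia6, Fkbp2 and Xbp1 were called with any single mouse left out. In Mem-K/W the count of 0 became 3 with all 12 mice in one fit and ranged over 0 to 16 with a mouse left out (2 to 1911 of all genes), and in KO-M/V it ranged over 0 to 1 (0 to 97 of all genes). In KO-M/WT-V the count of 1 became 2 at a minimum mean of 50, 0 without a trend, 11 with all 12 mice in one fit and 0 to 15 with a mouse left out, and the median of -0.21 ranged over -0.28 to -0.14. Over all genes, 595 were called there as reported, 365 with no filter on low values, 7 without a trend, 2067 with all 12 mice in one fit and 1 to 2490 with a mouse left out.

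Mice with the same replicate number did not deviate together over all genes tested (r = -0.175 to 0.0802), and the fits reported used no pairing. Mice with different numbers were not compared in this way, so a shared litter or batch was not tested. With a replicate block 16 genes of the 33 were called for genotype and 6 for KO-M/WT-V (999 of all genes), and 0 in the other comparisons. Alternative values for single genes were taken only for 87 results of named genes with an unadjusted p under 0.05 by limma as reported. Of these 1231 values, 1231 kept the sign of the value reported, 50 passed the threshold where the value reported had not and 55 lost it. Because of that selection, and because the fits share most of their mice, a kept sign was likely from the start and is no test of the genes. Leaving out mice also leaves fewer samples to test, and no other cause was tested. With normalized values only, differences in depth between mice could not be weighed.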
